A study of Mus musculus with 12 samples.

Results

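The S100 genes encode small calcium-binding proteins, and 10 of them were examined here in the trigeminal nerve of mice, which carries sensation from the face. The members were S100b, S100a1, S100a4, S100a6, S100a8, S100a9, S100a10, S100a11, S100a13 and S100a16, found by symbol among the 47480 gene symbols of the count table. RNA sequencing covered 6 libraries labelled plexiform neurofibroma, from mice of genotype Nf1 flox/flox PostnCre+, and 6 labelled normal nerve, from mice of genotype Nf1 flox/flox PostnCre-. Both groups carried the floxed Nf1 alleles, and only the tumour group carried the Cre recombinase, which is named for Postn, so that Cre, loss of Nf1 and tumour state coincide. The labels give no age, sex or batch and do not state that each library came from a separate animal, so the tests measure the spread between these libraries.

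S100 proteins hold a pair of EF-hand calcium-binding loops, mostly form dimers, and on binding calcium expose a surface that grips target proteins such as annexins, cytoskeletal motors and, outside the cell, receptors such as RAGE. S100b is abundant in Schwann cells and other glia, and S100 staining is a routine marker of nerve sheath tumours, including the plexiform neurofibromas that arise when Schwann lineage cells lose Nf1, the gene of the RAS inhibitor neurofibromin. S100a8 and S100a9 form calprotectin, a major protein of neutrophils.

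Total estimated counts ran from 15506364 to 19745644 in the tumours and from 14160025 to 19989351 in normal nerve. Levels are given as CPM, the count scaled to a common library size with TMM factors. Nf1 averaged 83.77 ± 8.13 CPM in the tumours and 131.1 ± 35.8 CPM in normal nerve (SD, n = 6 each; log2 fold change -0.65, edgeR adjusted p = 0.0179), with overlapping groups. The 8 sensory neuron markers summed to 7126 to 9001 CPM in the tumours and 5484 to 10179 CPM in normal nerve, and 12 Schwann cell markers summed to 6198 to 11220 CPM in the tumours and 2390 to 6653 CPM in normal nerve. Of the libraries, 3 were picked as standing apart after the data were seen. Plexiform neurofibroma 1 held 1651 CPM of skeletal muscle markers. Normal nerve 6 held 1624 CPM of astrocyte and oligodendrocyte markers and 4550 CPM of erythroid and blood markers. Normal nerve 2 had the lowest Schwann cell (2390 CPM) and fibroblast (186 CPM) sums. Other libraries were not free of such values. Normal nerve 3 held 402.6 CPM of skeletal muscle markers, and plexiform neurofibroma 3 held 112.5 CPM of olfactory neuron markers.

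All 10 S100 genes passed the filter on low counts. In the tumours S100b, S100a4, S100a6, S100a11, S100a13 and S100a16 were higher at an edgeR adjusted p under 0.05, none was lower, and S100a1, S100a8, S100a9 and S100a10 did not pass. Across all 17236 genes tested, 10.0% were called higher and 8.63% lower, 18.7% in either direction. The tumour and normal libraries did not overlap for 5 members, all higher in the tumours, against 4.40% of all tested genes higher without overlap and 7.39% in either direction. The median log2 fold change of the 10 members was 0.62, beside -0.021 for all tested genes.

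**Figure D1:**
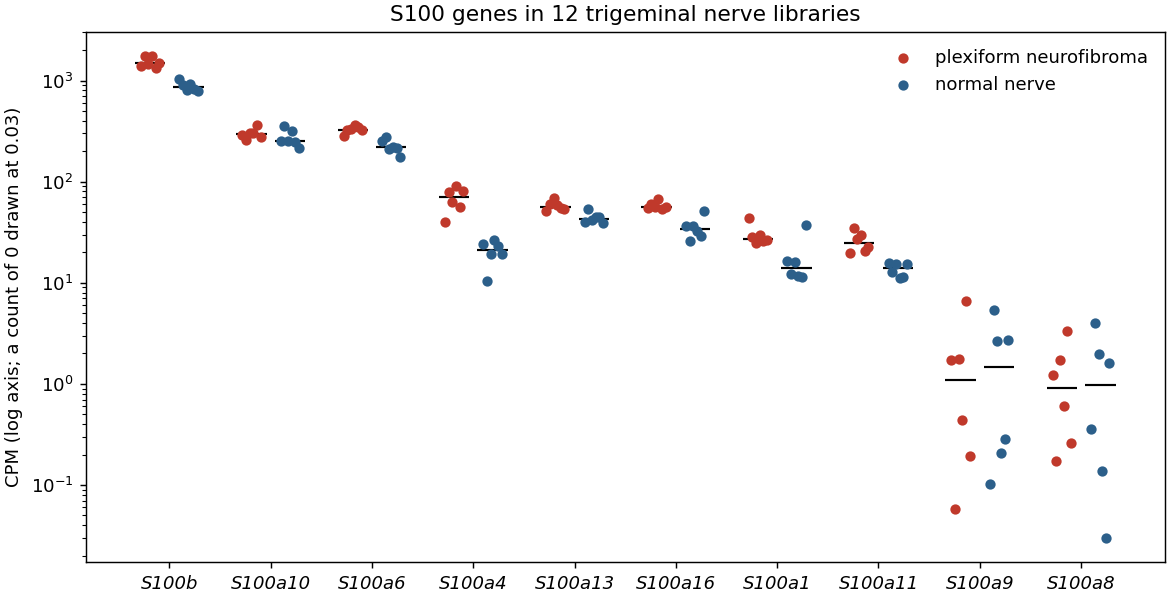
CPM of each S100 gene (vertical log axis) in 6 plexiform neurofibroma libraries (left of each pair) and 6 normal nerve libraries (right), 1 point per library, with a bar at each median. S100b lies between 1336 and 1736 CPM in the tumours and between 787.8 and 1046 CPM in normal nerve, while S100a8 and S100a9 lie far below the other members.

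Levels of different genes were compared as CPM per kilobase of the longest annotated transcript. S100b led in both groups, at 1031 ± 114 CPM per kb in the tumours and 593 ± 65 CPM per kb in normal nerve. S100a10 (437 ± 52.8 and 399 ± 76.7 CPM per kb in tumours and normal nerve) and S100a6 (417 ± 35.6 and 287 ± 44.1 CPM per kb) came next, and in the tumours these neighbours differed by less than their SDs. In the tumours S100a4 followed at 138 ± 38.2 CPM per kb, above S100a13 at 81 ± 9.25 CPM per kb, whereas in normal nerve S100a4 was at 41.2 ± 11.4 CPM per kb, below S100a13 at 61.1 ± 7.47 CPM per kb. S100a16, S100a11 and S100a1 lay between 43.9 and 51.1 CPM per kb in the tumours and between 25.9 and 31.4 CPM per kb in normal nerve, and neighbours among these 3 differed by less than the larger of their SDs. S100a9 and S100a8 were last, at 3.47 and 2.45 CPM per kb in the tumours and 3.65 and 2.68 CPM per kb in normal nerve. Summed over the family, the level was 2256 ± 162 CPM per kb in the tumours and 1471 ± 144 CPM per kb in normal nerve, and S100b made up 40.7% to 49.4% of that sum in the tumours and 36.5% to 44.4% in normal nerve.

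S100b, the glial member, lies alone on chromosome 10 (chr10:76253853-76261159, GRCm38, plus strand). RefSeq gives promoter windows, from 250 bases before to 50 after the annotated start site on GRCm38.p6, for 9 of the 10 members. They were searched on both strands for the AP-1 motif TGANTCA, found in 7.81% of 32851 promoter windows, the SOX motif ACAAAG, found in 18.7%, and the TATA box letters TATAAA, found in 13.6%. Capitals mark a match, and a match is a description of the letters only. The S100b window (chr10:76253586-76253885, plus strand), shown because S100b is the most abundant member, held none of them.
S100b: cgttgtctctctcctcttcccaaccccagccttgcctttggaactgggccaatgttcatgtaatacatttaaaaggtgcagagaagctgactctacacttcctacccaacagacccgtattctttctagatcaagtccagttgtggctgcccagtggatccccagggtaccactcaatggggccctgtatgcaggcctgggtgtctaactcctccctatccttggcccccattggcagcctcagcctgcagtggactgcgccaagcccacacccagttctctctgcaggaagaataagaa

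S100b ran from 1336 to 1736 CPM in the tumours (median 1491) and from 787.8 to 1046 CPM in normal nerve (median 862.2). Every tumour library was above every normal library. The means were 1531 ± 170 CPM in the tumours and 879.9 ± 96.4 CPM in normal nerve (SD, n = 6 each), a 1.74-fold difference (log2 0.80, SE 0.10, edgeR adjusted p = 0.00115). Of the 12 Schwann cell markers, 7 were called higher in the tumours and none lower, beside 10.0% and 8.63% of all tested genes. The median log2 fold change of these markers was 0.81. In bulk nerve, fewer or more cells of a type and less or more RNA per cell cannot be told apart. Set against the mean log2 level of those markers in the same library, S100b was 2.60 ± 0.14 log2 units above it in the tumours and 2.61 ± 0.34 in normal nerve, a difference of -0.01 (two-sided exact permutation test, p = 0.948, adjusted over 4 such relative levels p = 0.948). The sign of that small difference turned without normal nerve 2, the library with the highest relative level (0.11, adjusted p = 0.433), and with the median of the markers in place of their mean the difference was -0.25 (adjusted p = 0.196). S100b overlaps Dip2a on the opposite strand, with 11289 Dip2a counts over the 12 libraries, and whether the counting used strand is not given in the sources used here.

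**Figure D2:**
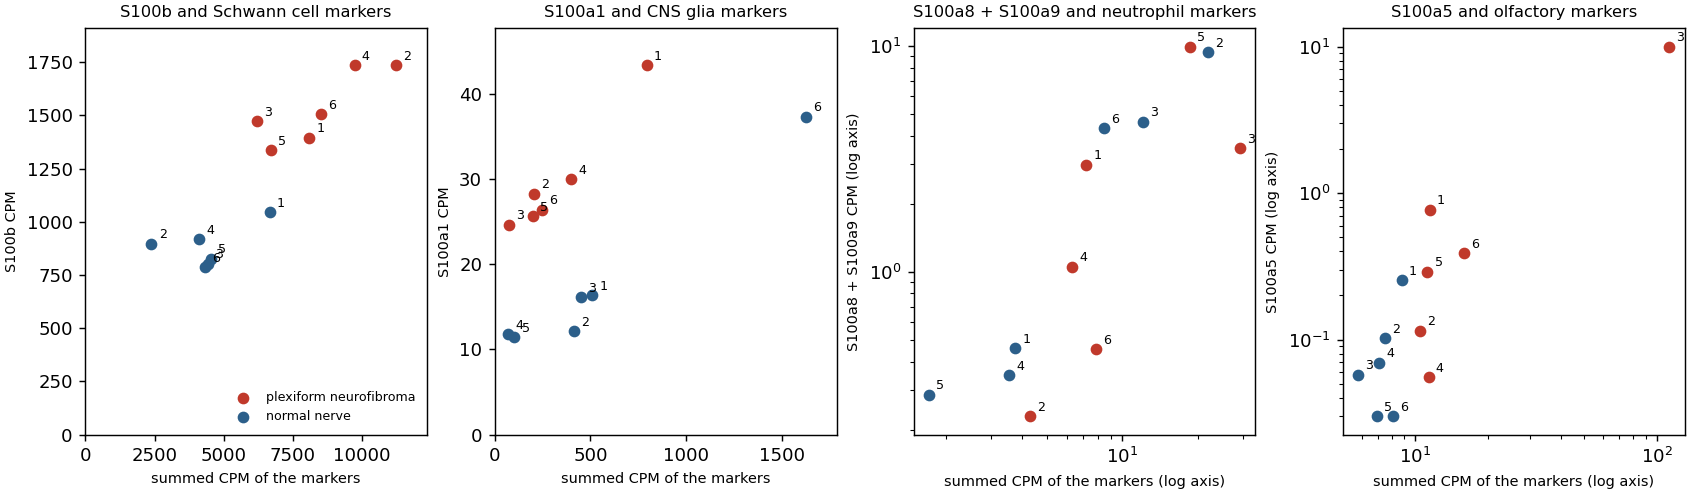
S100 levels against the summed CPM of cell type markers, 1 point per library with its number, for S100b and Schwann cell, S100a1 and astrocyte and oligodendrocyte (CNS glia), S100a8 plus S100a9 and neutrophil, and S100a5 and olfactory neuron markers; log axes are labelled, and a count of 0 is drawn at 0.03. S100b and the Schwann cell markers are both higher in the tumours, and single libraries lie apart in the other panels: plexiform neurofibroma 1 and normal nerve 6 for S100a1, and plexiform neurofibroma 3 for S100a5.

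The other 9 members lie on chromosome 3, where 5 of them were called higher. S100a4, known for binding non-muscle myosin and for its expression in motile and fibroblast-like cells, lies at chr3:90603771-90606045 (plus strand). Its promoter window (chr3:90603520-90603819) is shown because S100a4 had the largest fold change among the members, and it held TATAAA 31 bases upstream of the start site.
S100a4: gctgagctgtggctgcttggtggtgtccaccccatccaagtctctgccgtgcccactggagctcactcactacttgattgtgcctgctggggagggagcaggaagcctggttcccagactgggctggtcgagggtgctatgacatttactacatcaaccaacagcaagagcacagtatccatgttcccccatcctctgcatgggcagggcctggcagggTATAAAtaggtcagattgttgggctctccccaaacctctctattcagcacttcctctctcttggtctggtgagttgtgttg

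S100a4 ran from 39.86 to 90.85 CPM in the tumours (median 71.2) and from 10.48 to 26.63 CPM in normal nerve (median 21.14). The lowest tumour library, plexiform neurofibroma 1, was above the highest normal library. S100a4 averaged 68.49 ± 19 CPM in the tumours and 20.5 ± 5.66 CPM in normal nerve (SD, n = 6 each), 3.35-fold higher (log2 1.74, SE 0.23, edgeR adjusted p = 0.00156). Marker sums of fibroblasts and macrophages were set beside S100a4. Their called counts are read beside the 10.0% called higher among all tested genes. The 8 fibroblast markers summed to 1416 to 3141 CPM in the tumours and 186 to 1230 CPM in normal nerve, with 4 of 8 called higher. The 10 macrophage markers summed to 156.7 to 332.3 CPM in the tumours and 46.59 to 226.5 CPM in normal nerve, with 3 of 10 called higher. None of the markers on either list was at 0 in 6 or more libraries, and their part in the S100a4 difference was not tested. Myh9, the non-muscle myosin heavy chain that S100a4 binds, had 276.6 ± 24 CPM in the tumours and 259.1 ± 47.3 CPM in normal nerve (edgeR adjusted p = 0.593).

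S100a6, also named calcyclin, is found in proliferating and fibroblast-like cells and lies at chr3:90612882-90624181 (plus strand). It ran from 280.6 to 362.7 CPM in the tumours (median 325) and from 173.5 to 274.4 CPM in normal nerve (median 218.6). The groups did not overlap, although the gap between them was narrow. The means were 326.8 ± 27.9 CPM in the tumours and 224.4 ± 34.5 CPM in normal nerve (SD, n = 6 each), 1.46-fold higher in the tumours (log2 0.54, SE 0.10, edgeR adjusted p = 0.00542). Cacybp, the calcyclin-binding protein, had 117.2 ± 10 CPM in the tumours and 126.2 ± 17.4 CPM in normal nerve (edgeR adjusted p = 0.44). S100a6 was 1.48 ± 0.20 log2 units above Cacybp in the tumours and 0.83 ± 0.38 in normal nerve. The difference was 0.65 (two-sided exact permutation test, p = 0.00649, adjusted p = 0.026). It no longer passed in 5 settings, each with 1 tumour library left out, at an adjusted p of up to 0.0606.

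S100a10 and S100a11 bind annexins, which attach to membranes in the presence of calcium. S100a11 (chr3:93520488-93526287, plus strand) pairs with annexin A1 and has been linked to growth control and membrane repair. Its promoter window (chr3:93520246-93520545) is shown because it held AP-1 letters at 136 and at 38 bases upstream of the start site, 1 of 2 members with such a match. The other was S100a16, at 192 bases upstream of the second of its start sites.
S100a11: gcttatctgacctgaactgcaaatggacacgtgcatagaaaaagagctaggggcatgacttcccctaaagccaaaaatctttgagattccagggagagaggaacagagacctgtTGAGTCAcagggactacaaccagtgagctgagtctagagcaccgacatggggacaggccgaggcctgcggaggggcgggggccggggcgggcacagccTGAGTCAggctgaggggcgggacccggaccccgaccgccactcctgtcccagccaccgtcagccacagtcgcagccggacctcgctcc

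S100a11 ran from 19.73 to 34.71 CPM in the tumours (median 24.64) and from 11.19 to 15.58 CPM in normal nerve (median 14.01). All tumour libraries were above all normal libraries. The means were 25.66 ± 5.79 CPM in the tumours and 13.59 ± 2.01 CPM in normal nerve (SD, n = 6 each), 1.89-fold higher in the tumours (log2 0.92, SE 0.15, edgeR adjusted p = 0.00283). Its partner Anxa1 had 32.46 ± 9.6 CPM in the tumours and 9.821 ± 5.54 CPM in normal nerve, 3.31-fold higher in the tumours (log2 1.73, SE 0.37, edgeR adjusted p = 0.00952). S100a11 was thus lower relative to Anxa1 in the tumours, at -0.31 ± 0.31 log2 units against 0.68 ± 0.84 in normal nerve, a difference of -0.99 (two-sided exact permutation test, p = 0.013, adjusted p = 0.026). The normal libraries were spread widely, with normal nerve 2 at 1.98 and normal nerve 6 at -0.10. With any 1 tumour library left out the difference no longer passed, at an adjusted p of 0.0519 to 0.0996.

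S100a10, also named p11, is the member that no longer binds calcium, and it sits in a complex with annexin A2 at the plasma membrane. It lies at chr3:93555080-93564643 (plus strand). S100a10 ran from 259.3 to 365.1 CPM in the tumours (median 295.8) and from 214 to 357.7 CPM in normal nerve (median 253.4). The ranges overlapped over most of their length. It averaged 299.5 ± 36.1 CPM in the tumours and 273.3 ± 52.5 CPM in normal nerve (SD, n = 6 each), a 1.1-fold ratio that did not pass (log2 0.13, SE 0.12, edgeR adjusted p = 0.467). Anxa2 had 820.5 ± 59.7 CPM in the tumours and 730.5 ± 139 CPM in normal nerve (edgeR adjusted p = 0.343). Relative to Anxa2, S100a10 stood at -1.46 ± 0.09 log2 units in the tumours and -1.41 ± 0.14 in normal nerve (difference -0.04, two-sided exact permutation test, p = 0.543, adjusted p = 0.724).

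**Figure D3:**
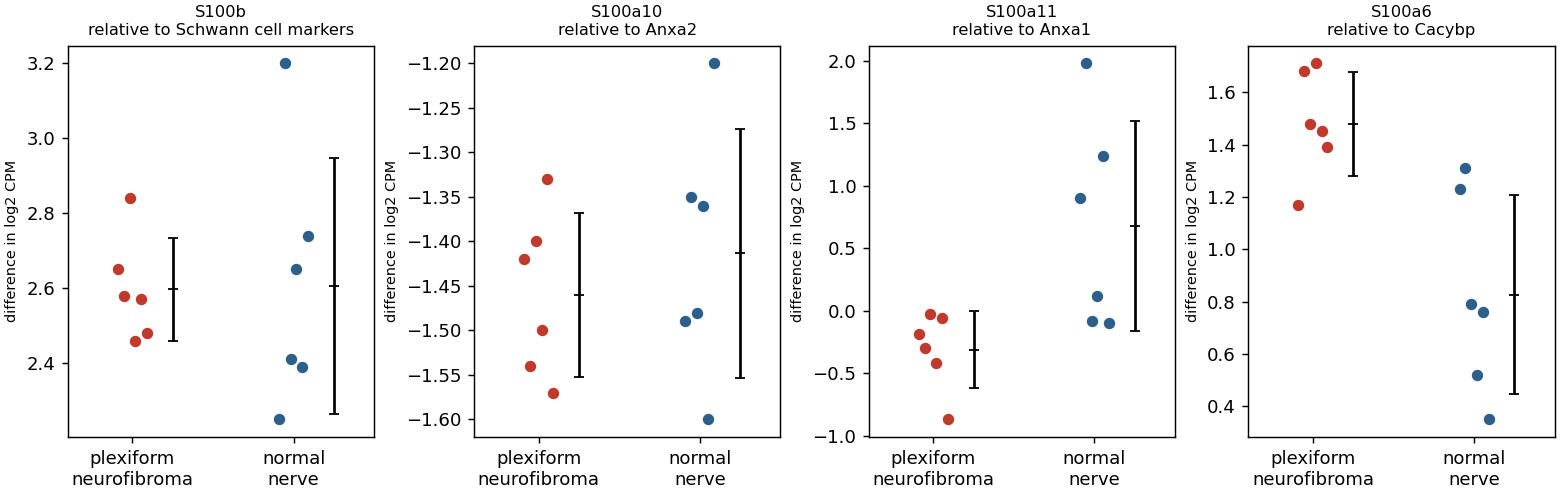
Log2 level of an S100 gene minus that of its comparison gene or marker list in each library, plexiform neurofibroma left and normal nerve right in each panel, with the mean and SD of each group beside the points. S100a6 lies higher against Cacybp and S100a11 lower against Anxa1 in the tumours with a small overlap of the groups, while S100b against the Schwann cell markers and S100a10 against Anxa2 overlap with means within 0.04.

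S100a13 takes part in the release of FGF1 and interleukin 1 alpha by a route that bypasses the secretory pathway. It lies at chr3:90514435-90524581 (plus strand), head to head with S100a1 (chr3:90511034-90514392, minus strand), with 42 bases between the annotated genes. Its promoter window (chr3:90514185-90514484) on the plus strand is shown because 204 of its bases, printed here in capitals, are also in the S100a1 window. Neither window held any of the 3 motifs.
S100a13: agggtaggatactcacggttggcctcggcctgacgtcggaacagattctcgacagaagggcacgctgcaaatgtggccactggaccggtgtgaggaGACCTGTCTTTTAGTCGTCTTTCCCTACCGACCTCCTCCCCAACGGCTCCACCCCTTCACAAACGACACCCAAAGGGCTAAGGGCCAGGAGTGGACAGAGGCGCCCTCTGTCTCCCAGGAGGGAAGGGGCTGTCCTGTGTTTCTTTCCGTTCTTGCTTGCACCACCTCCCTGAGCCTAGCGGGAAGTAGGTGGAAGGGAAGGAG

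S100a13 ran from 51.34 to 69.63 CPM in the tumours (median 56.48) and from 38.64 to 53.51 CPM in normal nerve (median 42.87). The groups overlapped only through normal nerve 2, the highest normal library. Its means were 57.91 ± 6.61 CPM in the tumours and 43.7 ± 5.34 CPM in normal nerve (SD, n = 6 each), 1.33-fold higher in the tumours (log2 0.41, SE 0.09, edgeR adjusted p = 0.0119). The call was lost with a correction for transcript length (log2 0.25, adjusted p = 0.0864).

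S100a1 is best known from heart and skeletal muscle, where it acts on calcium release and uptake by the sarcoplasmic reticulum, and it is also made by neurons and glia. It ran from 24.62 to 43.34 CPM in the tumours (median 27.32) and from 11.41 to 37.31 CPM in normal nerve (median 14.11). Of the normal libraries, 5 were at or below 16.34 CPM, under every tumour library, and normal nerve 6 was above 5 of the 6 tumours. The means of 29.7 ± 6.95 CPM in the tumours and 17.5 ± 9.95 CPM in normal nerve (SD, n = 6 each) did not differ past the threshold (log2 0.76, SE 0.28, edgeR adjusted p = 0.0755). Without normal nerve 6 S100a1 was called higher (log2 1.13, adjusted p = 0.00072), as it was with DESeq2 on all 12 libraries (log2 0.77, adjusted p = 0.0285). The 2 highest libraries of S100a1, plexiform neurofibroma 1 and normal nerve 6, were also the highest of their groups in the summed astrocyte and oligodendrocyte markers. That sum was 793.4 CPM in plexiform neurofibroma 1, beside 75.63 to 399.8 CPM in the other tumours, and 1624 CPM in normal nerve 6, beside 68.06 to 507.6 CPM in the other normal libraries. Of these sums, Mobp alone gave 442.1 CPM in plexiform neurofibroma 1 and 956.1 CPM in normal nerve 6. None of the 7 astrocyte and oligodendrocyte markers was called or was at 0 in 6 or more libraries. Plexiform neurofibroma 1 also had the highest skeletal muscle sum, 1651 CPM, beside 2.922 to 5.207 CPM in the other tumours. Normal nerve 6 was at 7.767 CPM, and normal nerve 3 was the highest normal library at 402.6 CPM. The part of either marker list in the S100a1 levels was not tested.

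S100a16, a widely expressed member, lies at chr3:90537254-90543151 (plus strand). It ran from 53.08 to 66.97 CPM in the tumours (median 55.83) and from 25.63 to 51.85 CPM in normal nerve (median 34.27). The groups did not overlap, and the highest normal library was again normal nerve 6. S100a16 averaged 57.64 ± 5.07 CPM in the tumours and 35.33 ± 9.11 CPM in normal nerve (SD, n = 6 each), 1.63-fold higher in the tumours (log2 0.71, SE 0.14, edgeR adjusted p = 0.00649). Across the 12 libraries the deviations of S100a16 from its group means correlated with those of S100a1 at Pearson's r = 0.80. That is a description over libraries that share their depth and cell content, and normal nerve 6 was the highest normal library of both genes.

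The calprotectin genes S100a8 (chr3:90668978-90670035, plus strand) and S100a9 (chr3:90692632-90695721, minus strand) were the lowest of the 10 members. The S100a8 window (chr3:90668821-90669120) is shown because it held TATAAA 30 bases upstream and the SOX letters, read on the opposite strand as CTTTGT, 3 bases downstream of the start site. S100a4 and S100a9 were the other members with TATAAA, which in S100a9 lies at the annotated start itself.
S100a8: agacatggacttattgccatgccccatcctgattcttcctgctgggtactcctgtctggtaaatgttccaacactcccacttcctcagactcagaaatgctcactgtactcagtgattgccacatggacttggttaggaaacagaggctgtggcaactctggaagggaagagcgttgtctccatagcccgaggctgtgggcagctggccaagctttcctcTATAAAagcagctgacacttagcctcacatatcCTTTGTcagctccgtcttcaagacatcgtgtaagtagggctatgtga

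S100a8 ran from 0.1719 to 3.318 CPM in the tumours (median 0.9195) and from 0 to 3.967 CPM in normal nerve (median 0.9743). S100a9 ran from 0.05728 to 6.577 CPM in the tumours (median 1.093) and from 0.1015 to 5.391 CPM in normal nerve (median 1.467). For both genes the groups overlapped fully, and single libraries set the top of each range. Neither passed the test, with a log2 fold change of -0.15 (SE 0.88, edgeR adjusted p = 0.918) for S100a8 and -0.09 (SE 1.01, edgeR adjusted p = 0.961) for S100a9. With standard errors of this size a 2-fold difference was not detectable. The 12 neutrophil markers summed to 4.296 to 29.24 CPM in the tumours and 1.711 to 21.87 CPM in normal nerve. Of these, 4 passed the filter and none was called, and Ly6g, Elane and Stfa2l1 were at 0 in at least 6 libraries. Single markers peaked in different libraries. Among the tumours the granule gene Ngp was highest in plexiform neurofibroma 5 (4.307 CPM), as S100a9 was. Ltf and the marker sum were highest in plexiform neurofibroma 3, where Ltf alone gave 24.41 of 29.24 CPM. Among the normal libraries Ngp was highest in normal nerve 3 (2.418 CPM), whereas S100a9 and the marker sum were highest in normal nerve 2. Of the 21.87 CPM summed there, Ngp gave 1.068, Ltf 0.7121 and Camp 0.1526 CPM, so most came from other markers on the list. Lcn2 varied most of these markers between the normal libraries, with an SD of 6.08 CPM around a mean of 3.469 CPM. A peak of the sum is thus not a peak of the whole list. The part of neutrophils in these levels was not tested.

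Of the 8 other S100 genes in the table, 3 passed the filter and 1, S100a3, was called. S100a3 had 1.434 ± 0.284 CPM in the tumours and 0.824 ± 0.225 CPM in normal nerve (SD, n = 6 each), 1.74-fold higher in the tumours (log2 0.80, SE 0.23, edgeR adjusted p = 0.032). Its call was lost in 9 of 20 alternative settings, with an adjusted p of up to 0.12. S100a7a (log2 -0.26, SE 0.42, edgeR adjusted p = 0.694) and 9130204L05Rik, which RefSeq names S100a7l2 (log2 -0.28, SE 0.34, edgeR adjusted p = 0.591), were not called. S100a2, S100a5, S100a14, S100g and S100z did not pass the filter.

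The S100 genes of chromosome 3 form a cluster that is broken by a long stretch of mostly other genes. S100a1 to S100a9 lie within 185 kb, and the next members, S100a11 and S100a10, follow 2.82 Mb further on. Of the S100 genes, 9130204L05Rik (S100a7l2) lies inside that stretch, at chr3:91088137-91090803. From S100a1 to S100a10 the annotation holds 121 genes, of which 119 were in the table and 17 were tested. The 5 tested genes from S100a1 to S100a10 that are not S100 genes, Gm9774, Sprr1a, Gm4202, Rplp0-ps1 and Tchh, included none that was called. Along the first block the members called higher (S100a13, S100a16, S100a4 and S100a6) stood between S100a1 on one side and S100a8 and S100a9 on the other. The values of S100a1, S100a8 and S100a9 did not pass. In the second block S100a11 was called and its neighbour S100a10 was not.

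**Figure D4:**
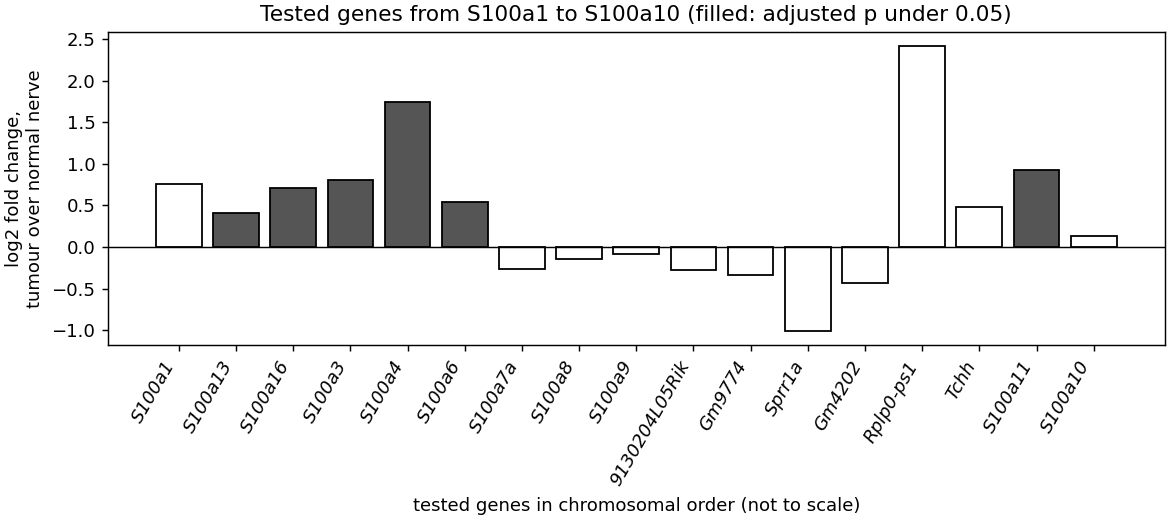
Log2 fold change of plexiform neurofibroma over normal nerve for the tested genes from S100a1 to S100a10 on chromosome 3, in chromosome order and not to scale, with bars filled where the edgeR adjusted p is under 0.05. S100a4 at 1.74 is the highest S100 gene, the pseudogene Rplp0-ps1 at 2.41 is open, and S100a10 at 0.13 stands beside S100a11 at 0.92.

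The partners of S100 proteins were examined in 3 lists, whose counts are read beside the 10.0% called higher and 8.63% called lower among all tested genes. Of 9 annexins tested, 2 were higher in the tumours and none lower (median log2 fold change 0.17), namely Anxa1, given above, and Anxa3, at 31.36 ± 8.45 CPM in the tumours and 12.03 ± 6.81 CPM in normal nerve (2.61-fold, edgeR adjusted p = 0.0117). Of 10 receptors and signalling genes, Cd14 (log2 0.82, edgeR adjusted p = 0.0214) and Myd88 (log2 0.54, edgeR adjusted p = 0.0308) of the toll-like receptor pathway were higher, and the adhesion molecule Alcam was lower (log2 -0.37, edgeR adjusted p = 0.0213), with a list median of 0.47. Each of these 3 calls was lost in 1 to 6 of the 20 alternative settings, with adjusted p up to 0.0683. Ager, which encodes RAGE, was at 1.226 CPM in the tumours and 0.8349 CPM in normal nerve (edgeR adjusted p = 0.384).

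Of 17 other partner genes tested, from a list of mostly intracellular S100 targets, 1 was higher and 2 lower, with a median of -0.06. Plat, which encodes tissue plasminogen activator, a secreted protease, was 1.63-fold higher (log2 0.71, edgeR adjusted p = 0.0128). Atp2a2, the calcium pump that S100a1 acts on in muscle, was lower in the tumours at 262.5 ± 19.5 CPM, against 379.4 ± 35.3 CPM in normal nerve (log2 -0.53, edgeR adjusted p = 0.00193). The phosphatase gene Ppp5c was lower by a smaller amount (log2 -0.26, edgeR adjusted p = 0.00927).

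For each S100 gene, the 3 tested genes most like it were named by Pearson's r of their deviations from the group means over the 12 libraries. This is a description in which the libraries share depth and cell content. Each named gene was picked for its high r among 17236 tested genes over only 12 libraries. High values can arise from that picking alone, and no r was tested. The highest values were for S100a1 with Slain1, Slc30a10 and Slc6a9, each at r = 0.98, and for S100a10 with Trappc1, also at r = 0.98. Normal nerve 6 stood far above the other normal libraries in S100a1 (37.31 CPM) and in Slc6a9 (27.22 CPM, next 5.296 CPM). S100b was most like 2900089D17Rik (r = 0.93), Vsig10 (r = 0.89) and Fxyd3 (r = 0.88), and S100a4 was most like Vmn1r181 (r = 0.94), Il34 (r = 0.92) and Gm30238 (r = 0.91). S100a6 stood nearest to Gm36944 (r = 0.94), Casp9 (r = 0.93) and Snx9 (r = 0.92). S100a10 was followed by Csnk2a2 and Emc9 (r = 0.94 each), and S100a11 was nearest to Gmppa (r = 0.96), Srsf6 (r = 0.95) and Bcl7c (r = 0.92). S100a13 was nearest to Dusp14 (r = 0.96), Gm26767 (r = 0.91) and Znhit2 (r = 0.89), and S100a16 to Marcksl1 (r = 0.97), Cnpy2 and Gm26669 (r = 0.96 each). The calprotectin genes were nearest to each other (r = 0.92), then to Tmsb15b1 (r = 0.91) for S100a8 and Fam131a (r = 0.91) for S100a9, and then to Ngp, at r = 0.89 with S100a8 and r = 0.88 with S100a9.

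Short transcripts as a class were higher in the tumour libraries, and the S100 transcripts are short, from 498 to 1484 bases. The smoothed log2 difference of tumours minus normal nerve over all genes with a length was 0.175 at 500 bases, 0.137 at 1000 bases and -0.114 at 8000 bases. With a correction for this trend, 5 members were called, all of the 6 except S100a13, among 2605 of all tested genes. S100b was then at 0.70 (adjusted p = 0.00273), S100a6 at 0.38 (adjusted p = 0.0318) and S100a10 at -0.031 (adjusted p = 0.884). Without the 3 libraries that stood apart, the same 6 members and S100a1 were called, with S100b at 0.80, S100a4 at 1.68 and S100a1 at 0.95 on the log2 scale. Those 3 included plexiform neurofibroma 1 and normal nerve 6, the highest S100a1 libraries of their groups. Leaving out normal nerve 6 alone also gave the S100a1 call, so this call cannot be set apart from the choice of libraries.

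**Figure D5:**
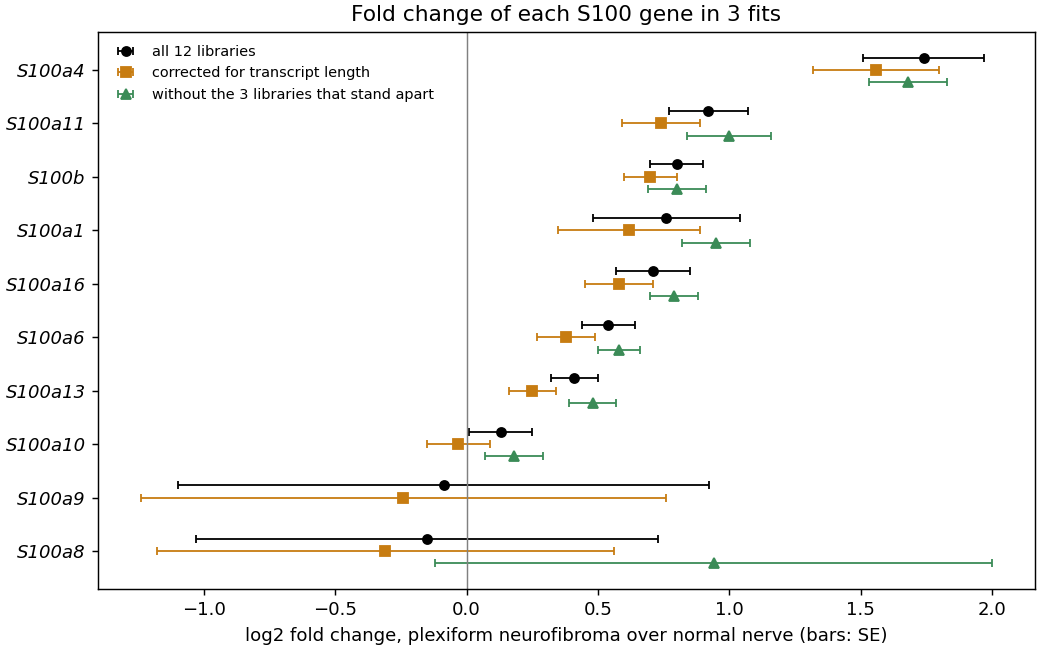
Log2 fold change of plexiform neurofibroma over normal nerve with SE for the 10 S100 genes, over all 12 libraries, with the correction for transcript length, and without 3 libraries. The correction lowers every member (S100a4 to 1.56, S100a10 to -0.031), and S100a8 and S100a9 have the widest bars, S100a9 being filtered out where the 3 libraries are left out.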

How the data were processed

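PolyA RNA libraries of trigeminal nerve were sequenced for 6 plexiform neurofibroma and 6 normal nerve samples. The labels' protocols name both a KAPA stranded kit and a TruSeq kit. The authors deposited expected counts, estimated for each of 47480 gene symbols and not normalized. Between 84.1% and 86.5% of a library's values were whole numbers (tolerance 0.001). Tools named per the submitters' processing notes, without role or order, are Salmon 0.60, STAR 2.4.2a, DESeq2 and FastQC, and the build is mm10. Annotation and strandedness of the counting: not given in the sources used here. Estimated counts share ambiguous reads out between similar genes.

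The counts were rounded, filtered with filterByExpr (17236 genes left), scaled by TMM and tested with the quasi-likelihood test of edgeR 4.0.16 (R 4.3.3), with Benjamini-Hochberg adjustment over all genes tested and a threshold of 0.05. Relative levels are differences of log2 CPM (prior count 2), compared by exact permutation of the group labels, two-sided, with 924 possible splits (smallest p 0.00216) and adjusted over 4. Alternatives were other scaling factors and filters, DESeq2 1.42.0, limma 3.58.1 (voom with sample weights), a prior count of 0.5, the median of the Schwann cell markers, and each library left out. A lowess correction for transcript length (span 0.3, 96.3% of tested genes with a length), a fit without 3 libraries and the olfactory neuron markers were chosen after seeing the data.

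The members and lists were chosen with earlier results of these data known. The named genes are all S100 genes in the table, up to 4 called genes of each partner list by p-value, Anxa1, Anxa2, Cacybp, the tested genes between the S100 genes on chromosome 3, and the 3 genes most like each member; Ager, Myh9, Ngp, Ltf and other single cell type markers were added after their values were seen. Coordinates are 1-based, from GENCODE vM21 on GRCm38; promoter sequences are RefSeq's on GRCm38.p6. Replicate numbers follow accession order and pair nothing.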

Additional observations from a re-analysis of the deposited data

Results flagged for a closer look

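In each group of 6 libraries, a level of an S100 gene, or 1 of the 4 relative levels, was singled out where its gap to the nearest other library took up more of the group's whole range than Dixon's critical value for 6 samples allows. Of 42 sets of 6 libraries checked, gene levels and relative levels together, 7 held such a value, all of them gene levels. The rate of about 1 in 20 by chance holds for Gaussian values, so it does not apply to sets of near-zero counts. Among the members, S100a1 stood at 43.34 CPM in plexiform neurofibroma 1, beside 24.62 to 29.97 CPM in the other tumours, and at 37.31 CPM in normal nerve 6, beside 11.41 to 16.34 CPM in the other normal libraries. S100a9 stood at 6.577 CPM in plexiform neurofibroma 5. Of the genes too low to test, S100a5 stood at 9.968 CPM in plexiform neurofibroma 3, and S100g at 0.356 CPM in plexiform neurofibroma 3 and at 0.4991 CPM in normal nerve 5. S100z stood at 0.05074 CPM in normal nerve 1, which is a single count.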

How the results depend on the processing

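S100b, S100a4, S100a6, S100a11 and S100a16 stayed called and higher in all 20 alternatives, and S100a13 in all but the length correction (0.25). S100a1 passed in 4: without normal nerve 6, without the 3 libraries, with DESeq2, and with voom. S100a8 and S100a9, never called, changed sign with voom (1.13 and 0.25), S100a8 also without the 3 libraries (0.94). With single libraries left out, S100a8 ran from -0.74 to 0.59 (turning at 0.59, 0.078 and 0.056) and S100a9 from -1.15 to 0.60 (turning at 0.60, 0.026, 0.032, 0.17, 0.12 and 0.15). S100a10 turned to -0.031 with the length correction. The calls over all genes, 3218, became 5585 with voom and 1893 to 5031 with 1 library left out, lowest without plexiform neurofibroma 4 and highest without normal nerve 6; members called stayed at 6 or 7. With the median of the Schwann cell markers, the relative difference of S100b was -0.25 (adjusted p 0.196). Without the 3 libraries, the tumour minus normal difference in relative level was 0.16 for S100b and 0.016 for S100a10 to Anxa2. With 1 library left out, the S100b difference ran from -0.084 to 0.11 (turning at 0.11, 0.015, 0.015 and 0.01), S100a11 to Anxa1 from -1.14 to -0.73 (adjusted p 0.0173 to 0.0996) and S100a6 to Cacybp from 0.56 to 0.75 (adjusted p 0.0173 to 0.0606). The cause of these shifts was not tested. Depth limits the S100 genes near 1 CPM. No paired analysis was possible because the labels give no shared replicate numbers.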

Other observations

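S100a5, a member known from olfactory sensory neurons, did not pass the filter on low counts, with 1.931 ± 3.95 CPM in the tumours and 0.08042 ± 0.0939 CPM in normal nerve (SD, n = 6 each). Nearly all of it was in plexiform neurofibroma 3, where it had 196 counts (9.968 CPM), and no other library was above 0.7685 CPM. The 8 olfactory neuron markers, a list added after this value was seen, summed to 112.5 CPM in that library, beside 10.48 to 15.92 CPM in the other tumours and 5.814 to 8.778 CPM in normal nerve. Omp, the olfactory marker protein gene, was at 51.88 CPM there, with the next tumour at 9.642 CPM. It was also called higher in the tumours (log2 1.68, edgeR adjusted p = 0.0348), from 7.866 CPM upwards, against at most 6.495 CPM in normal nerve. Stoml3 was at 21.56 CPM (next tumour 1.424 CPM) and Gfy at 23.75 CPM (next tumour 2.394 CPM). Gng13 and Ano2 of the same list had near-equal means, 0.8847 and 0.7111 CPM in the tumours and 0.807 and 0.7114 CPM in normal nerve. The part of the olfactory markers in the S100a5 value was not tested.

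Calcium sensors outside the S100 family were called in both directions. Of 20 tested, 4 were higher and 4 lower in the tumours, beside 10.0% higher and 8.63% lower among all tested genes, with a median log2 fold change of -0.04. Rcn3 and Calu, calcium-binding proteins of the secretory pathway, were higher. Rcn3 had 54.12 ± 16.5 CPM in the tumours and 20.63 ± 7.29 CPM in normal nerve (log2 1.39, edgeR adjusted p = 0.00758), and Calu had 186.7 ± 27.1 CPM in the tumours and 125.7 ± 17 CPM in normal nerve (log2 0.57, edgeR adjusted p = 0.00681). Ncs1 and Hpca, neuronal calcium sensors, were lower. Ncs1 had 116.4 ± 16.2 CPM in the tumours and 164.3 ± 15 CPM in normal nerve (log2 -0.50, edgeR adjusted p = 0.0055), and Hpca had 37.06 ± 3.02 CPM in the tumours and 48.93 ± 6.65 CPM in normal nerve (log2 -0.40, edgeR adjusted p = 0.0121).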
